A study of Mus musculus with 19 samples.

Results

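ERVB4 is a group of mouse endogenous retroviruses, and its subfamilies were measured as RNA in spermatogonia of 2 mutant mouse lines. Its members were taken as the subfamilies whose name begins with ERVB4, which gave 9 of the 259 retrotransposon subfamilies listed for each library. They are ERVB4_1B-I_MM, ERVB4_1B-LTR_MM, ERVB4_1C-LTR_Mm, ERVB4_1-I_MM, ERVB4_1-LTR_MM, ERVB4_2-I_MM, ERVB4_2-LTR_MM, ERVB4_3-I_MM and ERVB4_3-LTR_MM, and all 9 carry the annotation LTR/ERVK. The group was chosen by its measured RPM, which differed among mice of one genotype in these same libraries, so the spread within groups and the way members move together are described here without a test.

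The 19 libraries are mRNA-seq of EpCAM-positive spermatogonia, 1 mouse per library, sorted from testes at postnatal day 7. EpCAM is a surface protein of undifferentiated spermatogonia. The *Dnmt3l* line gave 2 wild-type (+/+), 3 heterozygous (+/-) and 3 KO (-/-) mice, and the *Pld6* line gave 3 wild-type, 3 heterozygous and 5 KO mice. Both lines had been backcrossed to C57BL/6J, and each has its own wild-type mice. Levels are in RPM as the authors deposited them, which scales the reads of each subfamily to the mapped reads of its library. The tables list retrotransposons only, so neither the targeted genes nor markers of spermatogonia or of other testis cells could be checked here.

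An endogenous retrovirus is a proviral copy inherited in the germ line, with an internal part that holds the retroviral genes between 2 long terminal repeats (LTRs), which hold the promoter and the polyadenylation signal. The suffix I marks the internal part of a subfamily and the suffix LTR its terminal repeat, so reads for both can come from the same transcripts. ERVK elements are the class of beta-retrovirus-like copies in mice, to which the IAP and ETn/MusD elements also belong. In fetal male germ cells, PLD6 is needed to make piRNAs, which guide DNA methylation to retrotransposons, and DNMT3L is a cofactor of *de novo* DNA methylation.

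One library stands apart. *Pld6* heterozygous replicate 1 listed 159 subfamilies at 0, against 60 to 90 in the other 18 libraries, and results that rest on it are also given without it. The summed RPM over all subfamilies ranged from 2103 to 14603. The read depth is unknown, so no counting error is given for any value.

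A subfamily was tested if 2 or more libraries listed it at 1 RPM or more. This filter was passed by 114 of the 259 subfamilies, among them 4 of ERVB4, namely ERVB4_1B-I_MM, ERVB4_1B-LTR_MM, ERVB4_1-I_MM and ERVB4_2-I_MM. The other 5 never reached 1 RPM. ERVB4_2-LTR_MM was above 0 in 16 libraries and reached 0.32 RPM. ERVB4_3-I_MM was above 0 in 9 libraries and reached 0.19 RPM. ERVB4_1-LTR_MM was above 0 in 8 libraries and reached 0.34 RPM, ERVB4_1C-LTR_Mm was above 0 in 6 and reached 0.21 RPM, and ERVB4_3-LTR_MM was above 0 in 1 library, at 0.06 RPM. These values lie near the bottom of the scale, where a listed 0 does not show that the RNA was absent. The terminal repeat of the ERVB4_1B group was thus readily measured, while the terminal repeats of the other groups were not.

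ERVB4_1B-I_MM, the internal part of the ERVB4_1B group, was found in all 19 libraries at 8.48 to 80.79 RPM, a 9.53-fold range with a median of 21.06 RPM. In the *Dnmt3l* line it stood at 20.99 and 14.78 RPM in the wild types, at 80.79, 39.57 and 19.8 RPM in the heterozygous mice, and at 78.51, 25.51 and 51.02 RPM in the KO mice. In the *Pld6* line it stood at 8.48, 66.07 and 21.06 RPM in the wild types, at 9.16, 46.08 and 13.66 RPM in the heterozygous mice, and at 12.43, 8.94, 32.71, 15.81 and 44.47 RPM in the KO mice. In each of the 5 groups with 3 or more mice, the highest mouse held at least 3.08 times the level of the lowest. The third highest value of all came from a *Pld6* wild-type mouse and the lowest from another *Pld6* wild-type mouse.

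The group means of ERVB4_1B-I_MM ran from *Dnmt3l* KO at 51.7 ± 26.5 RPM (SD, n = 3) and *Dnmt3l* heterozygous at 46.7 ± 31.1 RPM (SD, n = 3) through *Pld6* wild type at 31.9 ± 30.3 RPM (SD, n = 3) to *Pld6* heterozygous at 23.0 ± 20.1 RPM (SD, n = 3), *Pld6* KO at 22.9 ± 15.1 RPM (SD, n = 5) and *Dnmt3l* wild type at 17.9 ± 4.39 RPM (SD, n = 2). Every pair of neighbours in this order overlapped in range and differed by less than the larger of their SDs. Fewer cells with ERVB4 RNA and less ERVB4 RNA per cell cannot be told apart in such sorted pools.

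ERVB4_1B-LTR_MM, the terminal repeat of the same group, went from 0 to 12.73 RPM. It stood at 4.98 and 2.62 RPM in the *Dnmt3l* wild types, at 12.73, 5.07 and 3.97 RPM in the heterozygous mice and at 12.52, 3.54 and 7.39 RPM in the KO mice. In the *Pld6* line it stood at 1.33, 10.23 and 4.79 RPM in the wild types, at 0, 6.52 and 2.17 RPM in the heterozygous mice and at 2.18, 0.64, 6.03, 2.66 and 8.1 RPM in the KO mice. The mouse with the highest ERVB4_1B-I_MM in each group was also the mouse with the highest ERVB4_1B-LTR_MM, and the same held for the lowest, in 6 of 6 groups. The single value of 0 came from *Pld6* heterozygous replicate 1.

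ERVB4_1-I_MM, the internal part of the ERVB4_1 group, went from 0 to 11.19 RPM. It stood at 2.44 and 2.62 RPM in the *Dnmt3l* wild types, at 8.28, 5.69 and 2.85 RPM in the heterozygous mice and at 11.19, 2.69 and 5.42 RPM in the KO mice. In the *Pld6* line it stood at 0.75, 9.85 and 2.65 RPM in the wild types, at 0, 5.04 and 1.41 RPM in the heterozygous mice and at 1.21, 1.19, 3.21, 0.99 and 5.59 RPM in the KO mice. Its highest library was that of ERVB4_1B-I_MM in 5 of 6 groups and its lowest in 4 of 6. The exception for the highest was the *Dnmt3l* wild types.

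ERVB4_2-I_MM, the internal part of the ERVB4_2 group, was low in all 19 libraries, at 0.23 to 1.58 RPM, a 6.87-fold range. It stood at 1.25 and 1.31 RPM in the *Dnmt3l* wild types, at 0.91, 1.35 and 0.87 RPM in the heterozygous mice and at 1.07, 1.53 and 1.58 RPM in the KO mice. In the *Pld6* line it stood at 0.98, 1.01 and 1.22 RPM in the wild types, at 0.23, 1.53 and 0.52 RPM in the heterozygous mice and at 0.5, 0.38, 1.54, 0.68 and 1.03 RPM in the KO mice. In the *Pld6* wild types, the mouse with the highest ERVB4_1B-I_MM, replicate 2, lay between the other two in ERVB4_2-I_MM. Within groups the highest mouse held 1.05 to 6.65 times the level of the lowest, and the largest ratio, in the *Pld6* heterozygous mice, rests on replicate 1 at 0.23 RPM.

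**Figure D1:**
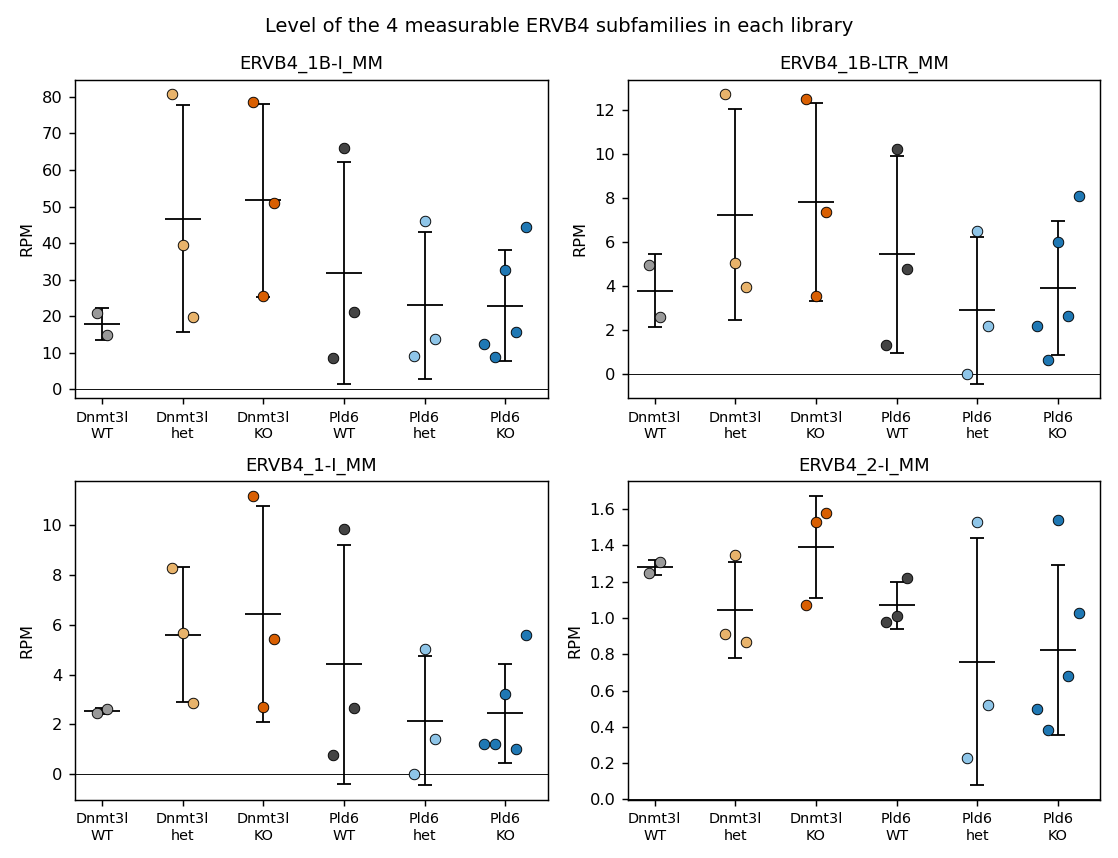
RPM (y axes, linear, each panel with its own range) of the 4 ERVB4 subfamilies that passed the filter, in the 6 groups (x axes). Each point is 1 mouse, in replicate order from left to right, the horizontal line is the group mean and the bars are ± 1 SD over 2 to 5 mice; ERVB4_1B-I_MM, ERVB4_1B-LTR_MM and ERVB4_1-I_MM share their high and low mice, such as *Pld6* wild-type replicate 2 at 66.07 RPM of ERVB4_1B-I_MM, whereas ERVB4_2-I_MM stays at or below 1.58 RPM.

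The spread within groups was next set beside that of the other subfamilies, as the SD of log2(RPM + 1) pooled over the 6 groups. The 3 subfamilies with the largest spread of the 114 were all ERVB4, with ERVB4_1B-LTR_MM at 1.02, ERVB4_1B-I_MM also at 1.02 and ERVB4_1-I_MM at 0.94. ERVB4_1B-LTR_MM therefore lay just above ERVB4_1B-I_MM, and ERVB4_1-I_MM just below it. IAPEY4_I, the internal part of an IAP-related ERVK subfamily, followed at 0.81 and the SINE B2_Mm1a at 0.63. The median of the 114 was 0.33. ERVB4_2-I_MM, at 0.31, ranked 63. This order depends in part on the scale. With a pseudocount of 0.1 in place of 1, ERVB4_1B-I_MM ranked 11, ERVB4_1B-LTR_MM 1 and ERVB4_1-I_MM 2, and ERVB4_2-I_MM had a pooled SD of 0.63 and ranked 43. The low values of ERVB4_2-I_MM are compressed by the pseudocount of 1.

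Subfamilies in the same band of level as ERVB4_1B-I_MM and ERVB4_1B-LTR_MM were less spread. Outside ERVB4, 49 subfamilies had a mean of 5 to 100 RPM, and their pooled SDs ran from 0.121 to 0.806 with a median of 0.297, IAPEY4_I being the highest. ERVB4_1-I_MM and ERVB4_2-I_MM, with means of 3.85 and 1.03 RPM, lie below this band. Among other retroviral elements, ETnERV, an ETn-related provirus, had a pooled SD of 0.26 and ranked 80. MMETn-int, the internal part of ETn elements, had 0.23 and ranked 98, and MERVL, a retrovirus known for its expression in early embryos, had 0.35 and ranked 46. The genotype groups accounted for 28.5% of the variation of ERVB4_1B-I_MM over the 19 libraries, 26.0% of that of ERVB4_1B-LTR_MM, 30.9% of that of ERVB4_1-I_MM and 32.9% of that of ERVB4_2-I_MM. The median over the 114 was 58.3% and the lowest 15.1%, and the share was 83.8% for ETnERV and 90.9% for MMETn-int. This share is not corrected for the number of groups. With 6 groups over 19 libraries it lies above 0 even where groups do not differ, so the ERVB4 shares alone do not show an effect of genotype.

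The spread was seen in most groups taken singly. In log2(RPM + 1), ERVB4_1B-I_MM had SDs of 0.99 in *Dnmt3l* heterozygous, 0.80 in *Dnmt3l* KO, 1.42 in *Pld6* wild type, 1.16 in *Pld6* heterozygous and 0.92 in *Pld6* KO libraries, with ranks of 1, 2, 1, 6 and 3 among the 114. In the 2 *Dnmt3l* wild types its SD was 0.34, rank 13. For ERVB4_1B-I_MM, large spread was therefore found in both lines and in KO mice, and among wild types in the *Pld6* line. ERVB4_1-I_MM had an SD of 0.05, rank 90, in the *Dnmt3l* wild types and of 1.32, rank 2, in the *Pld6* wild types. ERVB4_2-I_MM ranked 103 and 106 in these 2 groups. Without *Pld6* heterozygous replicate 1, the pooled SDs of ERVB4_1B-I_MM, ERVB4_1B-LTR_MM and ERVB4_1-I_MM were 1.01, 0.91 and 0.86, the 3 largest of all subfamilies tested.

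**Figure D2:**
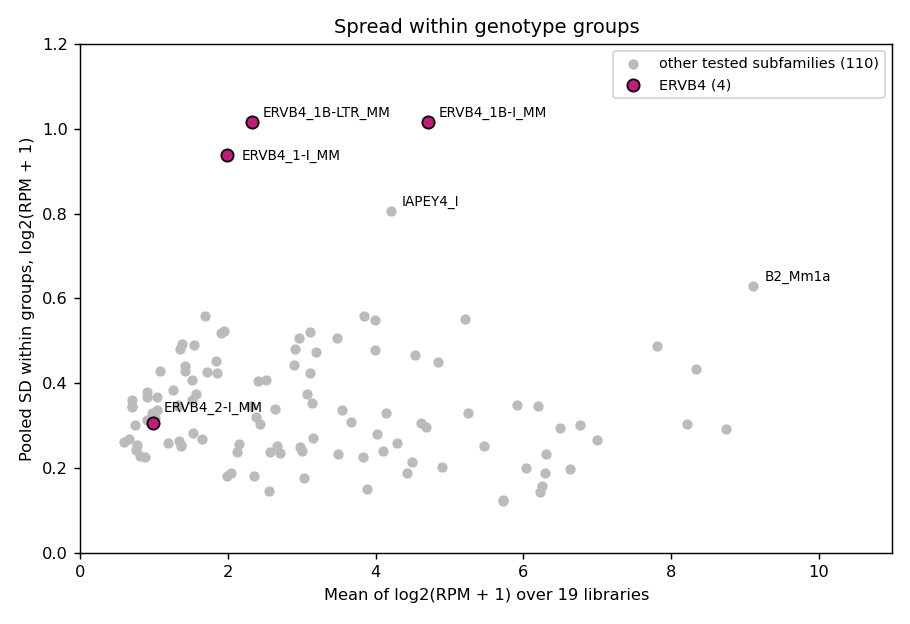
Pooled SD within the 6 genotype groups (y axis, log2(RPM + 1)) against the mean level over 19 libraries (x axis, log2(RPM + 1)) for 114 subfamilies, each a point. ERVB4_1B-I_MM, ERVB4_1B-LTR_MM and ERVB4_1-I_MM lie above all other subfamilies, at SDs of 1.02, 1.02 and 0.94, while ERVB4_2-I_MM at 0.31 lies among the rest, whose highest is IAPEY4_I at 0.81.

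To describe whether the members moved together, each library's deviation from its group mean in log2(RPM + 1) was taken. Over the 19 libraries, the deviations of ERVB4_1B-I_MM and ERVB4_1B-LTR_MM had a Pearson's r of 0.950 and a Spearman's rho of 0.940. Those of ERVB4_1B-I_MM and ERVB4_1-I_MM had an r of 0.951 and a rho of 0.914, and those of ERVB4_1B-LTR_MM and ERVB4_1-I_MM an r of 0.926 and a rho of 0.897. The libraries high in one of the 3 were mostly high in the others, with the exceptions by group given above. The points share libraries, the RPM total and the mapping, and a read that fits more than one ERVB4 consensus could count for any of them, and the part of these in the correlations was not tested.

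These correlations were high in each line taken alone. For ERVB4_1B-I_MM and ERVB4_1B-LTR_MM, r was 0.959 over the 8 *Dnmt3l* libraries and 0.950 over the 11 *Pld6* libraries, and for ERVB4_1B-I_MM and ERVB4_1-I_MM it was 0.932 and 0.959. Without the 2 libraries farthest from the median of ERVB4_1B-I_MM, *Pld6* wild-type replicate 2 and *Pld6* heterozygous replicate 2, r was 0.940 with ERVB4_1B-LTR_MM and 0.927 with ERVB4_1-I_MM. Without *Pld6* heterozygous replicate 1 it was 0.970 and 0.960.

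ERVB4_2-I_MM moved with the others less closely. Its r with ERVB4_1B-I_MM was 0.543 and its rho 0.556 over 19 libraries, with an r of -0.29 in the *Dnmt3l* line and 0.72 in the *Pld6* line. It was 0.503 without the 2 farthest libraries and 0.474 without *Pld6* heterozygous replicate 1. The sign of r thus differed between the lines, and the difference was not tested.

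The proportions of the members within a library restate the same RPM values on the linear scale. Here *Pld6* heterozygous replicate 1, with ERVB4_1B-LTR_MM and ERVB4_1-I_MM at 0, is left out. Over the other 18 libraries, the RPM of ERVB4_1B-LTR_MM relative to ERVB4_1B-I_MM ran from 0.0716 in *Pld6* KO replicate 2 to 0.237 in *Dnmt3l* wild-type replicate 1, with a median of 0.159 and a CV of 22.5%. The CVs of the RPM values themselves were 66.7% and 69.9%. The RPM of ERVB4_1-I_MM relative to ERVB4_1B-I_MM ran from 0.0626 in *Pld6* KO replicate 4 to 0.177 in *Dnmt3l* wild-type replicate 2, with a median of 0.113 and a CV of 22.8%, against a CV of 76.6% for ERVB4_1-I_MM itself. The proportion of ERVB4_2-I_MM varied more, from 0.0113 to 0.116 with a CV of 58.7%, against a CV of 35.3% for ERVB4_2-I_MM itself. It was lowest in the library with the most ERVB4_1B-I_MM, *Dnmt3l* heterozygous replicate 1, and highest in that with the least, *Pld6* wild-type replicate 1, which stood far above the library next in level, *Pld6* KO replicate 2 at 0.0425. These proportions are not corrected for the length of each consensus sequence, so they compare libraries and not the abundance of the subfamilies. ERVB4_1B-I_MM is their denominator, so a member that varies little has a lower proportion where ERVB4_1B-I_MM is high. With *Pld6* heterozygous replicate 1 the CVs of the first and second proportions were 33.5% and 33.7%.

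**Figure D3:**
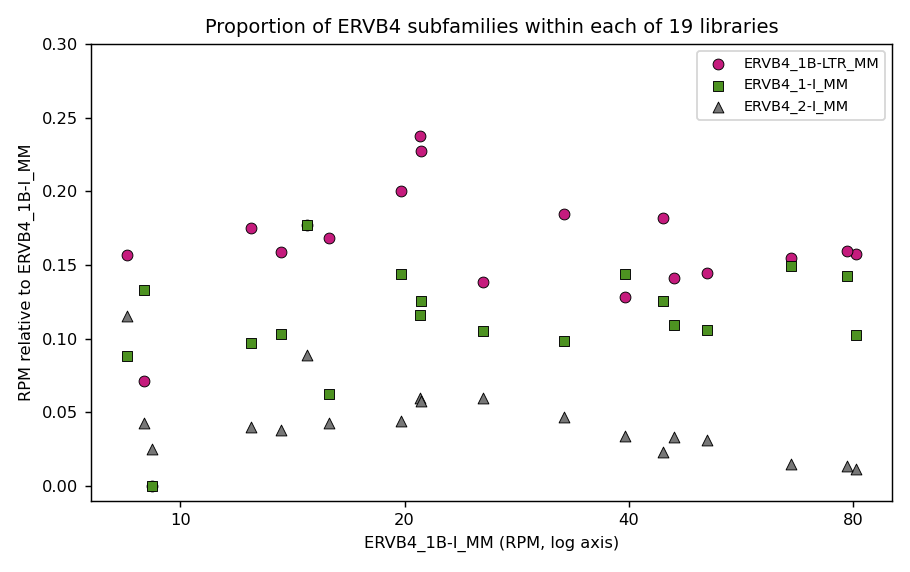
RPM of ERVB4_1B-LTR_MM (circles), ERVB4_1-I_MM (squares) and ERVB4_2-I_MM (triangles) relative to ERVB4_1B-I_MM in the same library (y axis), against the RPM of ERVB4_1B-I_MM (x axis, log scale), for 19 libraries. The circles and squares keep to a band with medians of 0.159 and 0.109 across a 9.53-fold range of ERVB4_1B-I_MM, apart from the 2 values at 0 of *Pld6* heterozygous replicate 1, whereas the triangles lie between 0.0113, at the highest ERVB4_1B-I_MM level, and 0.116, in a single library at the lowest level, beside which the 2 next lowest libraries stand at 0.0425 and 0.0251.

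Of the 110 tested subfamilies outside ERVB4, IAPEY4_I was the most like ERVB4_1B-I_MM in its deviations, with an r of 0.889 and a rho of 0.900 over 19 libraries. It stood at 11.97 and 9.39 RPM in the *Dnmt3l* wild types, at 28.36, 21.03 and 10.68 RPM in the heterozygous mice and at 48.38, 21.48 and 35.82 RPM in the KO mice. In the *Pld6* line it stood at 7.84, 28.41 and 25.58 RPM in the wild types, at 11.49, 26.75 and 7.22 RPM in the heterozygous mice and at 10.74, 10.38, 22.94, 8.62 and 42.44 RPM in the KO mice. Its highest library was that of ERVB4_1B-I_MM in 6 of 6 groups and its lowest in 4 of 6. The r was 0.985 in the *Dnmt3l* line, 0.865 in the *Pld6* line and 0.912 without *Pld6* heterozygous replicate 1. The RPM of IAPEY4_I relative to ERVB4_1B-I_MM had a CV of 34.1% over the 18 libraries without that one. The terminal repeat of the same subfamily, IAPEY4_LTR, had an r of 0.607.

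The next most like were LTRIS2 with an r of 0.697, RLTR10D with 0.686, RLTR4_MM-int with 0.686 and RLTR20C2_MM with 0.675. Over all 110, r ran from -0.571 to 0.889 with a median of 0.367, and 90 were above 0, so most subfamilies leaned the same way as ERVB4_1B-I_MM. ETnERV had an r of 0.611, MMETn-int 0.627 and MERVL 0.444. The order after IAPEY4_I depended on *Pld6* heterozygous replicate 1. Without that library, MMETn-int came next at 0.726, then RLTR20C2_MM at 0.687, RLTR4_MM-int at 0.660, LTRIS2 at 0.658 and RLTR10D at 0.646, with RLTR13B2 at 0.639 below these. A library-wide measure moved with ERVB4_1B-I_MM as well. The log2 median-ratio factor, which puts each library's 33 best-detected subfamilies (ERVB4_1B-I_MM among them) on one scale, had an r of 0.765 with it, although the factor's own SD within groups was 0.154 against 1.02 for ERVB4_1B-I_MM. Dividing the libraries by these factors left an r of 0.855 for IAPEY4_I, still the highest, with RLTR10D next at 0.620, and a median of 0.106 over the 110. It left ERVB4_1B-LTR_MM, ERVB4_1B-I_MM and ERVB4_1-I_MM with pooled SDs of 0.99, 0.91 and 0.90, ranks 1 to 3. The summed RPM outside ERVB4 had an r of 0.263 and the number of subfamilies at 0 an r of -0.431 with ERVB4_1B-I_MM.

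**Figure D4:**
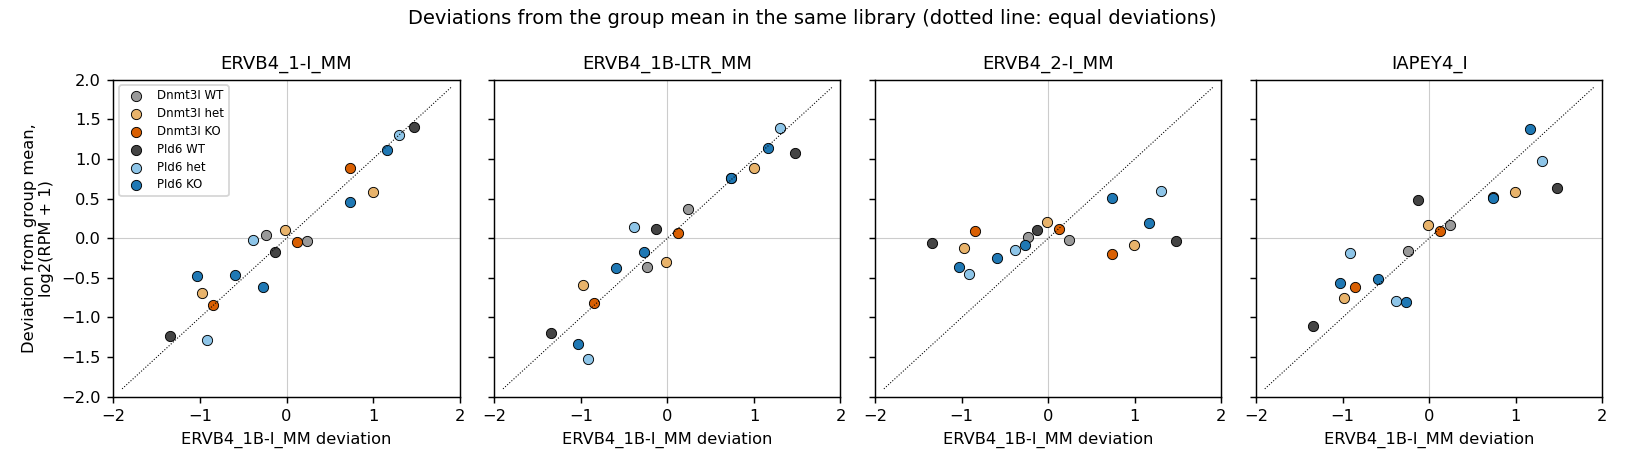
Deviation of each library from its group mean in log2(RPM + 1) for 4 subfamilies (y axes), against that of ERVB4_1B-I_MM in the same library (x axes), with 1 point per library, coloured by group. Points for ERVB4_1-I_MM, ERVB4_1B-LTR_MM and IAPEY4_I follow the dotted line of equal deviations, with r of 0.951, 0.950 and 0.889 over 19 libraries, whereas those for ERVB4_2-I_MM lie near 0 on its own axis, with an r of 0.543.

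The genotype comparisons ask whether loss of *Dnmt3l* or of *Pld6* changed ERVB4 RNA. In the main fit of 19 libraries and 114 subfamilies, no tested ERVB4 subfamily passed the threshold in any comparison (limma on log2(RPM + 1), Benjamini-Hochberg adjusted p under 0.05). None had an unadjusted p under 0.05 in that fit. Of the 114 subfamilies, 38.6% had one in *Pld6* KO, 45.6% in *Dnmt3l* KO, 4.39% in *Pld6* heterozygous and 0% in *Dnmt3l* heterozygous mice, and 28.1% in the difference between the KO effects. The wide spread of ERVB4_1B-I_MM, ERVB4_1B-LTR_MM and ERVB4_1-I_MM within groups enters the errors of their differences, so their intervals are wide. ERVB4_2-I_MM had smaller errors, on a scale that compresses its low values. The intervals do not show that levels were the same.

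In *Pld6* KO against wild type, 0 of 4 ERVB4 subfamilies were called, where 30.7% of the 114 were called higher and 0% lower. That split depends on the scaling, since rescaling by the median-ratio factors gave 29 higher and 16 lower calls in place of 35 and 0. These factors ran from 1.09 to 1.443 in the KO libraries and from 0.657 to 0.95 in the wild-type and heterozygous libraries. Dividing by them thus lowers every KO level relative to wild type. They come from retrotransposons only, so a rise shared by many of these would be taken out in part. ERVB4_1B-I_MM differed by -0.25 (SE 0.64, 95% interval -1.59 to 1.09) on the log2 scale, with a limma adjusted p of 0.790. ERVB4_1-I_MM differed by -0.43 (SE 0.60), ERVB4_1B-LTR_MM by -0.36 (SE 0.64) and ERVB4_2-I_MM by -0.21 (SE 0.22), with limma adjusted p values of 0.657, 0.709 and 0.531. The interval of ERVB4_1B-I_MM spans folds from 0.333 to 2.12. All 4 pairs of groups overlapped, where KO lay wholly above wild type for 35.1% of the 114 and wholly below for 0.877%. The median difference of the 4 was -0.31 and that of the 114 was 0.26. After rescaling they were -0.74 and -0.15, with ERVB4_1B-I_MM at -0.74. ERVB4_2-I_MM then differed by -0.47 (SE 0.21, limma adjusted p of 0.0804), and 1 of the 4 had an unadjusted p under 0.05. In the main fit, leaving out single libraries turned the sign of ERVB4_1B-I_MM, ERVB4_1B-LTR_MM and ERVB4_1-I_MM, whereas ERVB4_2-I_MM stayed between -0.34 and -0.12. Without *Pld6* wild-type replicate 2, the difference was 0.49 for ERVB4_1B-I_MM, 0.17 for ERVB4_1B-LTR_MM and 0.28 for ERVB4_1-I_MM, and without *Pld6* KO replicate 2 it was 0.01 for ERVB4_1B-I_MM.

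In *Dnmt3l* KO against wild type, 0 of 4 were called, where 38.6% of the 114 were called higher and 1.75% lower, 40.4% in all. Rescaling gave 27 higher and 9 lower calls in place of 44 and 2. ERVB4_1B-I_MM differed by 1.36 (SE 0.80, 95% interval -0.31 to 3.03), a fold of 2.57 on this scale, with a limma adjusted p of 0.185. ERVB4_1-I_MM differed by 0.91 (SE 0.75), ERVB4_1B-LTR_MM by 0.78 (SE 0.80) and ERVB4_2-I_MM by 0.06 (SE 0.28), with limma adjusted p values of 0.355, 0.437 and 0.861. For ERVB4_1B-I_MM and ERVB4_1-I_MM all 3 KO mice lay above both wild types, as was the case for 67.5% of the 114 (7.89% lay wholly below), and for the other 2 the groups overlapped. The median of the 4 was 0.85 and that of the 114 was 0.50. After rescaling, the medians were 0.30 and -0.02, and the difference of ERVB4_1B-I_MM was 0.71. With the heterozygous mice as controls it was 0.22. A fit to the *Dnmt3l* libraries of these groups alone called ERVB4_1B-I_MM with the same difference of 1.36 (SE 0.42, limma adjusted p of 0.0295). There limma takes the error from 5 mice and draws it toward the spread of the other subfamilies. The SD of ERVB4_1B-I_MM itself was 0.34 in these wild types and 0.80 in these KO mice, in log2(RPM + 1).

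Heterozygous mice gave no calls. In *Dnmt3l* heterozygous against wild type, 0% of the 114 were called in either direction, and ERVB4_1B-I_MM differed by 1.14 (SE 0.80, 95% interval -0.53 to 2.81, limma adjusted p of 0.950). This was close in size to the difference in *Dnmt3l* KO, which was taken from the same 2 wild types. ERVB4_1-I_MM differed by 0.81 (SE 0.75), ERVB4_1B-LTR_MM by 0.68 (SE 0.80) and ERVB4_2-I_MM by -0.17 (SE 0.28), each with a limma adjusted p of 0.950. The median of the 4 was 0.75 and that of the 114 was -0.07, or 0.83 and -0.02 after rescaling. The 1.14 of ERVB4_1B-I_MM was the highest difference of the 114. For ERVB4_1-I_MM all 3 heterozygous mice lay above both wild types, as for 5.26% of the 114 (24.6% lay wholly below). In *Pld6* heterozygous against wild type, 0% were called and ERVB4_1B-I_MM differed by -0.33 (SE 0.71, limma adjusted p of 0.827). It differed by 0.12 without *Pld6* heterozygous replicate 1 and by 0.40 without *Pld6* wild-type replicate 2. ERVB4_1B-LTR_MM differed by -0.89 (SE 0.72), ERVB4_1-I_MM by -0.75 (SE 0.67) and ERVB4_2-I_MM by -0.30 (SE 0.25), each with a limma adjusted p of 0.663. Without *Pld6* heterozygous replicate 1 these were -0.13, -0.11 and -0.08. The median of the 4 was -0.54 and that of the 114 was -0.20. All 4 subfamilies overlapped between these groups, where 1.75% of the 114 lay wholly higher and 2.63% wholly lower.

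The difference between the KO effects, *Dnmt3l* minus *Pld6*, was 1.61 for ERVB4_1B-I_MM (SE 1.02, 95% interval -0.53 to 3.75, limma adjusted p of 0.340), and 0 of 4 were called where 12.3% of the 114 were, 7.89% in the positive and 4.39% in the negative direction. The medians were 1.24 for the 4 and 0.25 for the 114. For ERVB4_1B-I_MM it was 0.87 without *Pld6* wild-type replicate 2, and with heterozygous controls it was 0.14, or 0.60 with *Pld6* heterozygous replicate 1 left out of them.

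**Figure D5:**
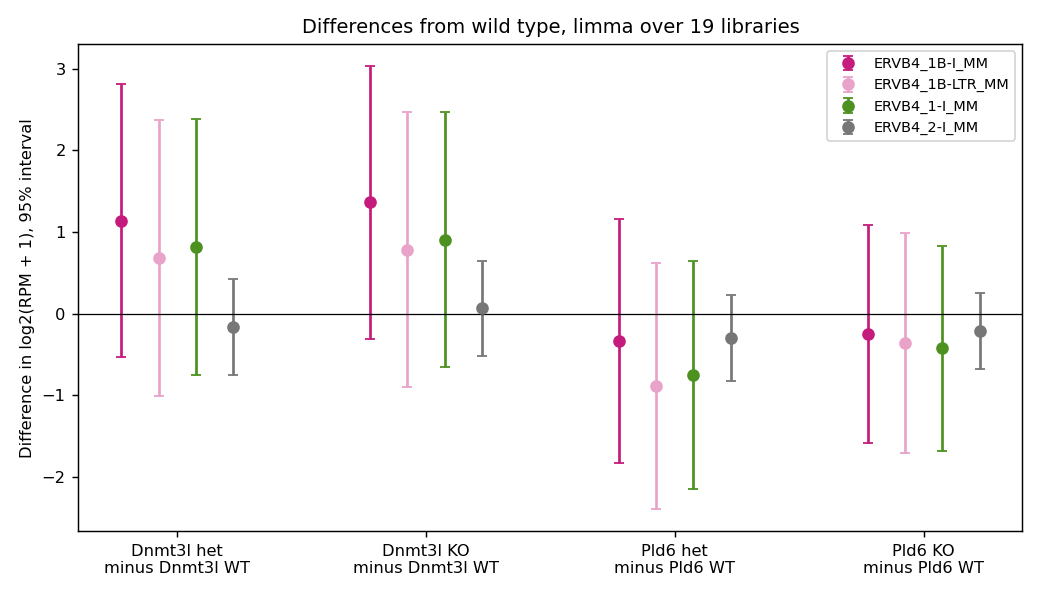
Difference in log2(RPM + 1) from wild type (y axis) for the 4 ERVB4 subfamilies in each of 4 comparisons (x axis), from limma over 19 libraries, with points for the estimates and bars for 95% intervals. Every interval includes 0, and that of ERVB4_1B-I_MM in *Dnmt3l* KO runs from -0.31 to 3.03.

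The related ERVB and ETn/MusD subfamilies are a list of 17, of which 6 passed the filter. In *Pld6* KO 3 of 6 were called higher and none lower, and in *Dnmt3l* KO 2 of 6 were called higher and none lower, beside the 30.7% and 38.6% of all subfamilies given above. Their medians were 0.70 and 0.25. After rescaling, 2 of 6 and 1 of 6 were called. ETnERV rose by 0.87 (SE 0.19) in *Pld6* KO and by 0.81 (SE 0.24) in *Dnmt3l* KO, with limma adjusted p values of 0.000896 and 0.0112, although after rescaling the differences were 0.38 (limma adjusted p of 0.0407) and 0.18 (limma adjusted p of 0.563). MMETn-int rose by 1.28 (SE 0.18) and 1.15 (SE 0.22), with limma adjusted p values of 4.78e-06 and 0.000269, and by 0.80 and 0.53 after rescaling. Its values were 7.61 and 8.24 RPM in the *Dnmt3l* wild types and 19.45, 16.83 and 20.37 RPM in the KO mice. These KO mice differed 3.08-fold in ERVB4_1B-I_MM and 1.21-fold in MMETn-int. Over all 19 libraries, the deviations of the 2 subfamilies still had an r of 0.627.

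IAPEY4_I, the subfamily most like ERVB4_1B-I_MM, had a difference of 1.57 (SE 0.64) in *Dnmt3l* KO with a limma adjusted p of 0.0582, and of -0.18 (SE 0.51) in *Pld6* KO with a limma adjusted p of 0.803. After rescaling these were 0.93 and -0.67. The difference between the KO effects was 1.75 (SE 0.82, limma adjusted p of 0.174), so it was not shown to differ between the mutants.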

How the data were processed

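The authors extracted poly(A) RNA from EpCAM-positive spermatogonia of single mice, made directional libraries and sequenced single-end reads of 50 bp. Trim Galore and the build mm10 stand in the submitters' processing notes. Reads were mapped onto retrotransposon consensus sequences with hisat2, and the deposited unit is RPM, with 1 value for each of 259 subfamilies in a library. How hisat2 was set, where a read with several matching subfamilies was counted, and which reads make up the RPM total are not given in the sources used here. Depth is unknown, since low values did not resolve into whole reads, so no count model and no counting interval was used. Groups follow the sample labels (2 wild-type and 3 heterozygous *Dnmt3l* mice), where the methods text gives these numbers the other way round.

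The limma model (limma 3.58.1, R 4.3.3, mean-variance trend) took log2(RPM + 1) of all 19 libraries in 6 groups, with no covariates, for the 114 subfamilies that reached 1 RPM in 2 or more libraries. Two-sided p-values were adjusted (Benjamini-Hochberg) over all 114 in each of 5 comparisons, with a threshold of 0.05. Differences on this scale understate the change of subfamilies with low RPM. Spread is the SD of log2(RPM + 1) pooled over groups, and co-variation is the correlation of deviations from the group means. No 2 libraries held identical values.

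The members, the lists and the tests were chosen with earlier results of these data known. Named subfamilies are all ERVB4 members, the 5 outside ERVB4 most correlated with ERVB4_1B-I_MM, the 5 with the largest spread, its neighbours in spread, and ETnERV, MMETn-int and MERVL for comparison. IAPEY4_LTR was named after its values were seen. Alternatives covered the pseudocount (0.1 and 0.5), the filter (dropped, or set to a mean of 5 RPM), rescaling by median ratios over the 33 subfamilies at 5 RPM or more in all libraries, the libraries fitted, the limma trend, heterozygous controls, a block for the replicate number, and leaving out each library. Tables and plots were made in Python 3.11.15 with pandas 2.3.3, numpy 2.4.6, matplotlib 3.10.9 and scipy 1.17.1.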

Additional observations from a re-analysis of the deposited data

Results flagged for a closer look

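Dixon's ratio, the gap between an extreme library and its nearest neighbour over the range of its group, was 1.0 for ERVB4_1C-LTR_Mm and for ERVB4_1-LTR_MM in *Pld6* KO. In each case a single library was above 0, *Pld6* KO replicate 3 at 0.07 RPM for ERVB4_1C-LTR_Mm and replicate 5 at 0.11 RPM for ERVB4_1-LTR_MM, and the other 4 were at 0. Chance flags about 1 in 20 groups of spread values, but that rate does not apply here, since the ratio is 1.0 whenever 4 of 5 libraries are tied at 0. Only the *Pld6* KO group, with 5 libraries, was large enough for this check.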

How the results depend on the processing

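The count of 0 ERVB4 calls held in *Pld6* KO, in both heterozygous comparisons and in the difference between the KO effects under every alternative run. In *Dnmt3l* KO it became 1 with no filter on low values, where ERVB4_1-LTR_MM differed by -0.30 with a limma adjusted p of 0.0152 (0.34 and 0.28 RPM in the wild types, 0, 0 and 0.21 RPM in the KO mice), and 1 with only the libraries of the groups compared, where ERVB4_1B-I_MM had a limma adjusted p of 0.0295 at a difference of 1.36. With heterozygous controls, the *Pld6* KO difference turned to 0.084 for ERVB4_1B-I_MM, 0.53 for ERVB4_1B-LTR_MM, 0.33 for ERVB4_1-I_MM, 0.086 for ERVB4_2-I_MM and 0.25 for IAPEY4_I, and the difference between the KO effects turned to -0.42 for ERVB4_1B-LTR_MM and -0.23 for ERVB4_1-I_MM. With *Pld6* heterozygous replicate 1 left out of these controls, chosen after seeing the data, the former were -0.37, -0.24, -0.32, -0.14 and 0.15 and the latter 0.34 and 0.41, so of these only IAPEY4_I stayed turned. Rescaling turned ERVB4_2-I_MM in *Dnmt3l* KO to -0.31 and left 1 other ERVB or ETn/MusD call there, and without a filter the difference between the KO effects held 1 such call. A pseudocount of 0.1 lowered the r of ERVB4_1B-I_MM with ERVB4_1B-LTR_MM to 0.845. A mean RPM of at least 5 leaves out ERVB4_1-I_MM and ERVB4_2-I_MM. The cause of these changes was not tested.

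With each library left out in turn, the *Pld6* KO difference ran from -0.92 to 0.49 for ERVB4_1B-I_MM and from -0.96 to 0.17 for ERVB4_1B-LTR_MM. It ran from -1.04 to 0.28 for ERVB4_1-I_MM and from -0.34 to -0.12 for ERVB4_2-I_MM, which did not turn. For IAPEY4_I it ran from -0.74 to 0.13, and it turned without *Pld6* wild-type replicate 2, wild-type replicate 3 or KO replicate 4. The *Pld6* heterozygous difference of ERVB4_1B-I_MM ran from -1.01 to 0.40, and its *Dnmt3l* KO difference from 1.00 to 1.79. IAPEY4_I in *Dnmt3l* KO passed the threshold without KO replicate 2 (1.88), with only the groups compared, with a mean RPM of at least 5 and with the block, and ETnERV there did not without wild-type replicate 1 (0.70).

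The labels number replicates alike in each group. Over all tested subfamilies, same-numbered libraries did not all deviate together. Their r ran from 0.04 to 0.55 over 7 pairs of the *Dnmt3l* line (5 above 0.1) and from -0.30 to 0.46 over 9 pairs of the *Pld6* line (4 above 0.1). ERVB4_1B-I_MM deviated the same way in 6 of 7 and in 5 of 9 of these pairs. The numbers were not taken to pair the mice, although pairing in the *Dnmt3l* line is not excluded. With the replicate number as a block, ERVB4_1B-I_MM differed by -0.55 in *Pld6* KO, 1.58 in *Dnmt3l* KO, -0.33 in *Pld6* heterozygous and 1.35 in *Dnmt3l* heterozygous mice and by 2.12 between the KO effects. No ERVB4 subfamily was called with it (0), and IAPEY4_I in *Dnmt3l* KO was (1.73, limma adjusted p of 0.0175).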
